A study of Mus musculus with 12 samples.

Results

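Ribosome biogenesis genes encode the proteins that make and assemble ribosomes in the nucleolus. The set was a named list of 44 such genes, chosen with earlier results of these data known. Its counts beside the shares of all genes therefore describe these data and are no separate support. Each gene was represented by its probe set with 1 gene symbol, and by the brightest on average where several existed. This gave 43 genes out of 19938 on the array, and all 43 were among the 11206 genes bright enough to be tested. Noc2l had no such probe set and was not analysed here.

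The measurements came from germinal centre (GC) B cells, the dividing B cells of the spleen that are selected for the affinity of their antigen receptor. SwHEL B cells, which carry a receptor for hen egg lysozyme and here the CD45.1 marker, were given to female C57BL/6J hosts of the CD45.2 type. All hosts received sheep red blood cells coupled to HEL3x, a lysozyme mutant, and donor IgG1+ CD38 low cells were sorted from spleen on day 10. The 4 groups of 3 arrays were light zone cells (LZ, CD86 high and CXCR4 low) and dark zone cells (DZ, CXCR4 high and CD86 low), each of high or low affinity, written LZ_high, LZ_low, DZ_high and DZ_low. All 4 groups therefore share the transgenic donor, the host and the antigen, and no unimmunized or non-transgenic group was included. The labels give no affinity gate and name no animals, so replicate arrays may be technical, and the p-values then cover only that spread. A shared suffix in the sample descriptions ties 1 array of each group into each of 3 matched sets, and the number after a group name is that set.

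Values are log2 RMA expression values as deposited, so a difference of 1 is a doubling. Array medians lay between 5.57 and 5.72, and the correlation of arrays over all probe sets lay between 0.951 and 0.993. Matched set 3 stood apart: on the first principal component of the tested genes, which held 40.1% of the variance, its 4 arrays scored 12.5 to 52.9 and the other 8 arrays -26.4 to -6.7. LZ_high array 3 had the lowest mean correlation with the rest, 0.963. The number of genes higher and their median are therefore also given without set 3 in each comparison. The 5 B cell markers and 5 GC B cell markers analysed were all bright enough to be tested. Markers of other cells were in part bright enough. Of those with a probe set, these were 4 of 11 macrophage, 2 of 7 T cell and 6 of 9 granulocyte genes. Also bright enough were 5 of 7 plasma cell, 5 of 7 follicular dendritic and stromal and 3 of 4 erythroid genes. Lyz2, Cd68, Cd3e, Cd8a, S100a8 and S100a9 were among the bright, and Adgre1, Csf1r, Cd3d, Cd4 and Ly6g among the dim.

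RNA polymerase I transcribes the long ribosomal RNA precursor in the nucleolus. Small nucleolar ribonucleoproteins (snoRNPs) modify it, and assembly factors fold it, cut it and load ribosomal proteins until the small (40S) and large (60S) subunits leave for the cytoplasm. The transcription factor Myc activates many of these genes in dividing cells, and in the germinal centre Myc is induced in LZ cells that bind antigen and receive T cell help.

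The promoters of these genes were read from RefSeq (build GRCm38.p6), 250 bases before to 50 after each start site, and 40 of the 44 genes matched (not Bop1, Fbl, Rrp12 and Rrs1). Each word was searched on both strands, and a gene counted if any of its windows held it. The E-box CACGTG, the palindromic word that Myc with its partner Max and several other factors can bind, was present in 10 of the 40 (25.0%), against 8.09% of 27025 genes. The ETS core word CCGGAA was in 16 of the 40 (40%, against 16.7%). Other words were found at 15 of 40 for CCAAT (37.5%, against 41.1%), 2 for TATAAA (5.0%, against 15.7%) and 2 for AAGATGGC, a YY1 word (5.0%, against 3.19%). These promoters were also richer in G and C, with a median of 58.2% against 52.7% over all genes, and had a median of 22 CpG dinucleotides against 7, and word counts were not matched for this. A match is a description of letters and not a measured binding site.

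The 10 E-boxes are shown because this is the word, among those searched, that Myc can bind. Each line is a window of at most 30 bases, 5′ to 3′ on the strand of the gene, with the E-box in capitals. In 3 genes (Imp4, Nop2 and Utp18) the word lies before the start site and in 7 after it.
Grwd1 (chr7:45830740-45830767, reverse strand): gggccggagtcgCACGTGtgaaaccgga
Imp4 (chr1:34439696-34439725, forward strand): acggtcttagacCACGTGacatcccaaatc
Mybbp1a (chr11:72441355-72441376, forward strand): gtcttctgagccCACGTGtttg
Nop2 (chr6:125131811-125131840, forward strand): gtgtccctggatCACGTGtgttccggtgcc
Pes1 (chr11:3963965-3963994, forward strand): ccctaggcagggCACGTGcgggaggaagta
Pno1 (chr11:17211540-17211564, reverse strand): tgtacaaccacgCACGTGttcctct
Tsr1 (chr11:74898092-74898121, forward strand): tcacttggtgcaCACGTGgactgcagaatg
Utp18 (chr11:93885769-93885798, reverse strand): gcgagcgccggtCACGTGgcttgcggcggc
Utp20 (chr10:88826765-88826789, reverse strand): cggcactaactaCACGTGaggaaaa
Wdr43 (chr17:71616220-71616249, forward strand): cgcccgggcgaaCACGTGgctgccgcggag

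The 250 bases before the start are shown for the genes with the smallest p-values in the affinity comparisons, Cmss1 and Wdr75 in the LZ and Cmss1 and Grwd1 in the DZ. Capitals mark a CCAAT box on the opposite strand in Wdr75 and the ETS core in Grwd1, 39 bases before its start. None of the 5 words lies in this stretch of Cmss1.
Cmss1 (chr16:57606868-57607117, reverse strand): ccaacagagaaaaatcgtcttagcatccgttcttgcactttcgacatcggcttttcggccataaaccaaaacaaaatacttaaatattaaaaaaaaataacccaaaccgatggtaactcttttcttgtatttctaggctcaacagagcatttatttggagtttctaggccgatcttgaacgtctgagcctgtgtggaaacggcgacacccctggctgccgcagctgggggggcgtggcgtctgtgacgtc
Wdr75 (chr1:45794916-45795165, forward strand): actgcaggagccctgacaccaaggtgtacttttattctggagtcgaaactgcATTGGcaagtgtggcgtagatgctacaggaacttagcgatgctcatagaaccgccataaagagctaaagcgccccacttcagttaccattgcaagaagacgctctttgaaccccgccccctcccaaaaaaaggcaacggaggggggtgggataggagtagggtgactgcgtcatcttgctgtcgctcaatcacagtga
Grwd1 (chr7:45830790-45831039, reverse strand): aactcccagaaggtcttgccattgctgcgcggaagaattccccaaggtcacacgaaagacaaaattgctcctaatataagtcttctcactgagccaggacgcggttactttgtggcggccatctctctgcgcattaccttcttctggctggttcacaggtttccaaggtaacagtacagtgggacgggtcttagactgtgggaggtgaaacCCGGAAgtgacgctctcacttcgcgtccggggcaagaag

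High and low affinity were compared first within the light zone, which asks how cells of the 2 affinities differ where selection takes place. Most ribosome biogenesis genes had higher values in high-affinity LZ cells: 37 of 43 had a positive difference (49.7% of all tested genes did), with a median of 0.33 against -0.002 over all genes. In matched sets 1, 2 and 3 the median of the 43 genes was 0.42, 0.40 and 0.19, and 42, 40 and 30 of them were higher. No gene of the set passed limma with Benjamini-Hochberg adjustment over all genes (percent called 0 over all 11206 genes), and none did with the matched set as a block. At an unadjusted p under 0.05, 9 of the 43 were found (4.16% of all genes), 9 of them higher (1.75%) and 0 lower (2.41%). With the block, 15 of the 43 reached this in either direction (7.95% of all genes).

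In this LZ comparison 27 of the 43 genes were higher in each of the 3 matched pairs, where 15.1% of all genes were, and 0 were lower in each (16.7%). Values did not overlap between the groups for 12 genes, each with its 3 LZ_high arrays above its 3 LZ_low arrays (4.32% of all genes), and 0 genes had the reverse (4.49%). These were Fbl, Nolc1, Heatr1, Wdr75, Nop14, Pno1, Cmss1, Wdr12, Nop16, Rrs1, Grwd1 and Ncl. Without matched set 3, all 43 had a positive difference and the median was 0.37; 39 were higher in both remaining pairs, against 28.7% of all genes. Without LZ_high array 3 alone, 37 were higher.

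**Figure D1:**
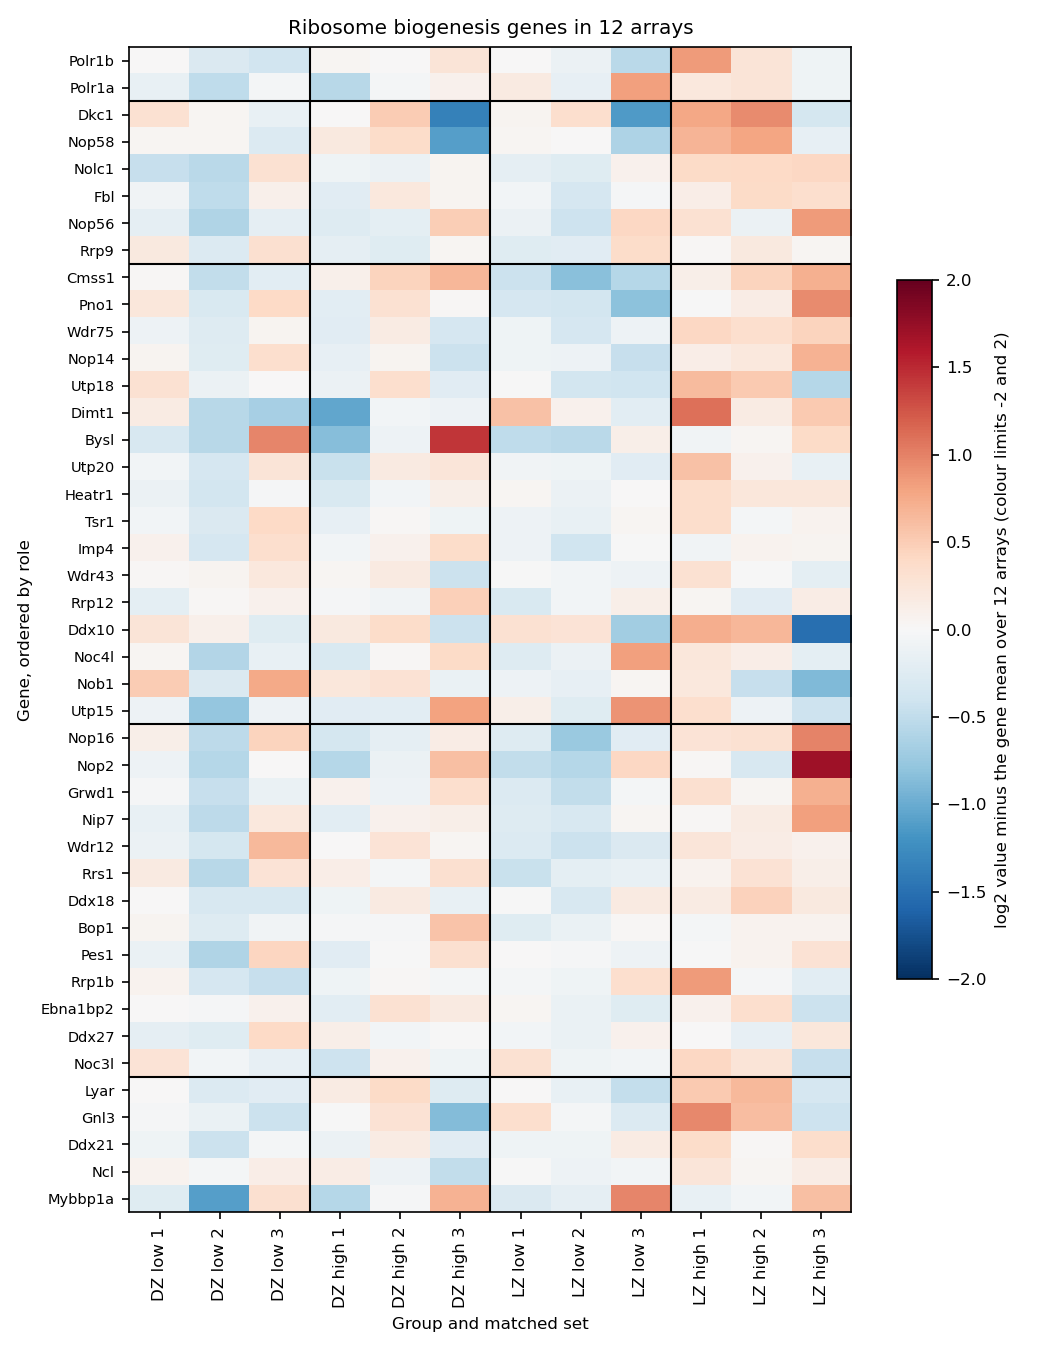
Colour gives each gene's log2 value minus its own mean over the 12 arrays, with genes in rows by role (lines separate RNA polymerase I, snoRNP core, 40S assembly, 60S assembly and regulators) and arrays in columns by group and matched set. In LZ high 1 and 2 most genes lie above their means, while arrays of set 3 hold strong colours in both directions, such as Nop2 at 9.48 and Ddx10 at 7.37 in LZ high 3.

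Other measured groups moved alongside. In the same comparison, genes of mitosis and the G2 phase had a median of 0.49, with 23 of 23 at positive differences and 0 called, and the proliferation marker gene Mki67 had 0.58 ± 0.33 (SE, limma adjusted p = 0.999). Granulocyte markers had a median of -0.73 (5 of 6 lower), macrophage markers -0.38 (3 of 4 lower) and T cell markers -0.31 (2 of 2 lower), 0 of them called. Mean levels of a marker list were taken over all its genes with a probe set, dim ones included, and medians over the tested ones. The mean level of the granulocyte list ranged from 5.10 to 6.66 in LZ_high and from 5.29 to 6.60 in LZ_low arrays. For macrophages it was 4.82 to 5.21 and 4.83 to 5.49, and for T cells 4.77 to 5.10 and 4.87 to 6.06. B cell markers had a median of -0.16 (5 of 5 lower) and GC B cell markers -0.18 (4 of 5 lower), 0 called. The mean level of the B cell list was 10.73 to 10.84 in LZ_high and 10.98 to 11.02 in LZ_low arrays. For GC B cell markers it was 9.79 to 9.94 and 9.96 to 10.03, so neither list overlapped between the groups. The part of all these genes in the affinity difference was not tested. In such bulk samples, fewer cells of a type and less RNA per cell cannot be told apart.

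RNA polymerase I was represented by Polr1a and Polr1b, which form the catalytic core of the enzyme. Polr1b was 7.10, 6.51 and 6.16 in LZ_high arrays 1, 2 and 3 and 6.25, 6.13 and 5.71 in LZ_low. Each LZ_high array lay above its partner, although array 3 lay below the highest LZ_low value, and the difference was 0.56 ± 0.24 (SE, 3 arrays a group, limma adjusted p = 0.999). In the DZ, Polr1b was 6.29, 6.25 and 6.51 at high and 6.25, 5.96 and 5.86 at low affinity, a difference of 0.33 ± 0.24 (limma adjusted p = 1). It was 1 of 3 genes of the 43 that were higher at high affinity in all pairs of both zones (2.29% of all genes were). Polr1a did the opposite in set 3: it was 7.82, 7.87 and 7.52 in LZ_high and 7.79, 7.44 and 8.43 in LZ_low. Its difference of -0.15 ± 0.26 had the sign of that 1 pair, and it was 0.23 without set 3 and 0.12 without LZ_low array 3.

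The snoRNP core had the largest median of the 5 roles in the LZ, 0.47 over 6 genes, and all 6 had positive differences. Fbl, the ribose methyltransferase of box C/D snoRNPs, was 11.49, 11.75 and 11.69 in LZ_high and 11.30, 11.03 and 11.34 in LZ_low. The groups did not overlap, and the difference was 0.42 ± 0.19 (SE, limma adjusted p = 0.999). The other Fbl probe set, far dimmer at a mean of 6.59 against 11.36 over the arrays, gave 0.40. Nop58, a scaffold of the same particle, was 10.11, 10.22 and 9.26 against 9.46, 9.44 and 8.81, and its partner Nop56 was 10.35, 9.93 and 10.90 against 9.92, 9.62 and 10.45. Both were higher in every pair and overlapped between groups because set 3 sat low for Nop58 and high for Nop56.

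Dkc1, the pseudouridine synthase of box H/ACA snoRNPs, showed the same set pattern more widely. Its values were 9.12, 9.30 and 8.0 in LZ_high and 8.41, 8.68 and 7.22 in LZ_low. Pairs differed by 0.71, 0.62 and 0.79, while the unblocked difference of 0.71 had an SE of 0.51, and 0.26 with the block (limma adjusted p = 0.999 and 0.612). Without LZ_low array 3 it was 0.26, since that array was the lowest of the group.

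Nolc1, a chaperone of snoRNPs in the nucleolus and Cajal bodies, was even at 9.19, 9.21 and 9.22 in LZ_high. LZ_low values were 8.62, 8.56 and 8.89, DZ_high values 8.72, 8.68 and 8.86 and DZ_low values 8.34, 8.26 and 9.11. All LZ_high arrays lay above all other 9 arrays, and the LZ affinity difference was 0.52 ± 0.21 (SE, limma adjusted p = 0.999). Rrp9, which binds the U3 snoRNA, had the smallest difference of this role, 0.12 ± 0.20, with set 3 going the other way (-0.33).

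Assembly of the small subunit was covered by 17 genes with a median of 0.30 in the LZ, 13 of them at positive differences. Cmss1, a little studied relative of a yeast protein linked to small subunit assembly, had the smallest p of the whole set and ranked 5 among all 11206 genes. It was 7.73, 8.06 and 8.32 in LZ_high and 7.18, 6.78 and 7.04 in LZ_low, and in the DZ 7.72, 8.06 and 8.28 at high and 7.64, 7.12 and 7.40 at low affinity. In both zones the high-affinity arrays lay above all low-affinity arrays of that zone, and the high-affinity values of the zones nearly coincided. The difference was 1.04 ± 0.21 in the LZ (SE, limma adjusted p = 0.945, 0.464 with the block) and 0.64 ± 0.21 in the DZ (limma adjusted p = 1).

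Averaged over both zones, Cmss1 was 0.84 higher at high affinity, and its adjusted p by limma was 0.462. The LZ difference stayed between 0.90 and 1.19 when any 1 array was left out. With array weights, which let limma trust some arrays more, Cmss1 was called in the LZ (1.05, adjusted p = 0.0201) and in the mean (0.78, adjusted p = 0.0216). The same weights called 103 of all genes in the LZ (0.919%) and 52 in the mean (0.464%), against 0 and 0 without weights. That fit stopped before its convergence tolerance and weighted LZ_high array 2 by 9.15 and LZ_high array 3 by 0.21. Filip1l, a gene whose interval overlaps Cmss1, had a difference of 0.008 in the LZ on its own probe set.

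Pno1, a factor of late 40S maturation, was 7.65, 7.82 and 8.61 in LZ_high and 7.33, 7.29 and 6.85 in LZ_low. The groups did not overlap, but set 3 contributed most: pairs differed by 0.33, 0.53 and 1.76 around a difference of 0.87 ± 0.28 (SE, limma adjusted p = 0.999), and without matched set 3 it was 0.43. DZ values of Pno1 were 7.45, 7.97 and 7.69 at high and 7.89, 7.36 and 8.06 at low affinity, with set 2 alone higher at high affinity.

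The t-UTP proteins, which act on both rRNA transcription and processing, were Heatr1, Wdr43, Wdr75 and Utp15. Wdr75 was 9.46, 9.38 and 9.49 in LZ_high and 8.95, 8.70 and 8.94 in LZ_low. Its pairs differed by 0.52, 0.68 and 0.55, an even pattern over sets, with a difference of 0.58 ± 0.16 (SE, limma adjusted p = 0.999). Heatr1 was 9.61, 9.48 and 9.49 against 9.30, 9.14 and 9.26, also without overlap, a difference of 0.30 ± 0.15 (limma adjusted p = 0.999). Wdr43 had 0.09, and Utp15 had -0.31 with pairs of 0.23, 0.14 and -1.30, so that set 3 alone gave its sign.

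The other 40S genes with LZ values given here did not share one pattern. Nop14, part of the early 40S precursor, was 8.94, 9.02 and 9.50 in LZ_high and 8.73, 8.71 and 8.35 in LZ_low, without overlap (0.56 ± 0.22). Utp20, a large scaffold protein, was 7.86, 7.35 and 7.13 against 7.20, 7.19 and 7.04, higher in each pair, and Bysl, a 40S maturation factor, 7.82, 7.92 and 8.27 against 7.38, 7.35 and 8.01. Nob1, the nuclease that makes the mature end of the small rRNA, was 7.73, 7.07 and 6.64 against 7.42, 7.36 and 7.56, higher in set 1 only; its difference was -0.30 ± 0.31 and 0.01 without set 3. Ddx10, an RNA helicase, was 9.60, 9.55 and 7.37 against 9.19, 9.15 and 8.18, so a fitted difference of -0.001 joined pairs of 0.41, 0.40 and -0.81.

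Large subunit assembly was covered by 13 genes, all with positive differences in the LZ and a median of 0.33. Nop16, a nucleolar 60S factor, was 9.62, 9.65 and 10.33 in LZ_high and 9.08, 8.60 and 9.11 in LZ_low. The groups did not overlap, and the difference was 0.93 ± 0.28 (SE, limma adjusted p = 0.999, 0.464 with the block). Grwd1, a chaperone of a ribosomal protein, was 6.98, 6.70 and 7.36 against 6.39, 6.17 and 6.62 in the LZ, and 6.75, 6.56 and 6.99 against 6.64, 6.20 and 6.52 in the DZ. It was higher at high affinity in all 6 pairs, by 0.62 ± 0.21 in the LZ and 0.31 ± 0.21 in the DZ (limma adjusted p = 0.999 and 1).

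Bop1, Pes1 and Wdr12 form the PeBoW complex, which processes the precursor of the large rRNAs. Bop1 was 6.87, 6.97 and 6.98 in LZ_high and 6.66, 6.77 and 6.93 in LZ_low, and Pes1 was 8.26, 8.33 and 8.55 against 8.28, 8.24 and 8.17. Their differences of 0.15 ± 0.18 and 0.15 ± 0.24 were within 1 SE of 0. Wdr12, at 8.77, 8.67 and 8.61 against 8.26, 8.09 and 8.24, did not overlap between groups (0.49 ± 0.22), and its other probe set gave 0.64.

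Nop2, a methyltransferase of the large rRNA, was 7.81, 7.47 and 9.48 in LZ_high and 7.29, 7.21 and 8.20 in LZ_low. Each pair was higher at high affinity, but the difference of 0.69 ± 0.49 rested on LZ_high array 3, without which it was 0.07. The remaining 60S genes ran from 0.01 for Noc3l to 0.51 for Nip7.

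The regulators were 5 proteins that act on nucleolar transcription or structure, with a median of 0.25 in the LZ. Ncl encodes nucleolin, an abundant nucleolar RNA-binding protein, and was 11.46, 11.27 and 11.37 in LZ_high and 11.22, 11.12 and 11.17 in LZ_low. The groups were narrow and did not overlap, although the difference was small at 0.20 ± 0.17 (SE, limma adjusted p = 0.999). Gnl3 encodes nucleostemin, a nucleolar GTPase of dividing cells, and was 9.74, 9.41 and 8.37 against 9.12, 8.75 and 8.52, higher in sets 1 and 2 only. Mybbp1a, a nucleolar protein linked to repression of rRNA synthesis, was 7.94, 8.03 and 8.69 against 7.80, 7.91 and 9.07, and its difference of -0.04 ± 0.45 became 0.13 without set 3.

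Lyar, a nucleolar growth regulator, was 9.87, 9.99 and 9.01 in LZ_high and 9.36, 9.20 and 8.87 in LZ_low. It was higher in each pair (0.48 ± 0.26, limma adjusted p = 0.999) and was called only with array weights (0.73, adjusted p = 0.0422), in the fit that stopped early and called 103 genes in all, against 0 without weights.

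**Figure D2:**
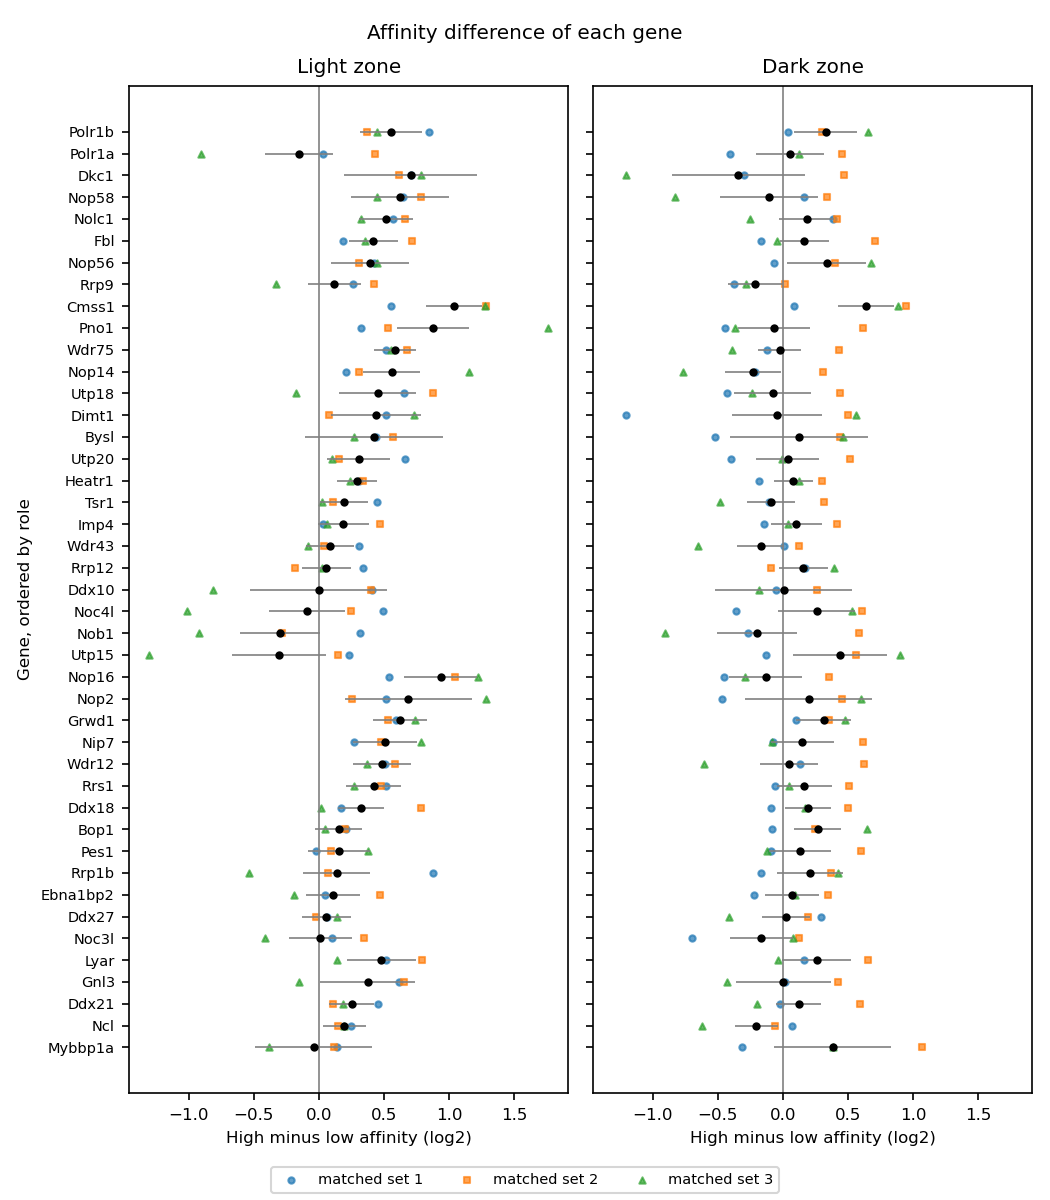
Black points give each gene's high minus low affinity difference (log2) with its SE from limma over 3 arrays a group, and coloured points the 3 matched pairs, for LZ and DZ. In the LZ 37 of 43 black points lie right of 0, while in the DZ the squares of set 2 lie right of 0 for 41 genes and the circles of set 1 for 12.

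In the dark zone the same comparison gave a less even picture. The median of the 43 genes was 0.08 and 29 had positive differences (50.4% of all genes did), with 0 called by limma without or with the block (percent called 0). At an unadjusted p under 0.05 there was 1 gene, Cmss1 (2.2% of all genes), and 2 with the block, Cmss1 and Grwd1 (5.33%). In sets 1, 2 and 3 the medians were -0.12, 0.43 and -0.04, and 12, 41 and 20 genes were higher. Over all tested genes the medians of those pairs were -0.13, 0.07 and 0, so in set 1 the 43 genes lay near all genes and in set 2 above them.

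Only Cmss1, Polr1b and Grwd1 were higher in all 3 DZ pairs, which is 3 of 43 (9.31% of all genes), and only Cmss1 had groups that did not overlap (3.29%). The count moved with single arrays and sets. Without DZ_low array 2, 18 of 43 were higher and the median was -0.06, and without DZ_low array 3, 32 were higher with a median of 0.19. Without matched set 3, 37 were higher with a median of 0.125, and 10 were higher in both remaining pairs (16.5% of all genes). DZ_low array 2 was the lowest of that group for Pno1 (7.36), Nob1 (7.24) and Mybbp1a (6.99). Within set 1 the lowest medians by role were those of 40S genes (-0.18) and of Polr1a with Polr1b (-0.19).

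Marker lists were also compared in the DZ. Granulocyte markers had a median of 0.37 (0 of 6 lower) and plasma cell markers 0.42 (1 of 5 lower), with 0 called in either list. Macrophage markers had 0.08 (1 of 4 lower) and T cell markers -0.05 (1 of 2 lower). B cell markers had -0.15 (4 of 5 lower) and GC B cell markers -0.15 (3 of 5 lower), again with 0 called. The mean level of the granulocyte list ranged from 5.20 to 6.84 in DZ_high and from 5.30 to 6.16 in DZ_low arrays. For plasma cells it was 7.29 to 7.49 and 6.97 to 7.20, without overlap. This level included Prdm1 and Tnfrsf17, which were not bright enough to be tested and are not in the median. The part of these markers in the DZ values of the 43 genes was not tested.

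**Figure D3:**
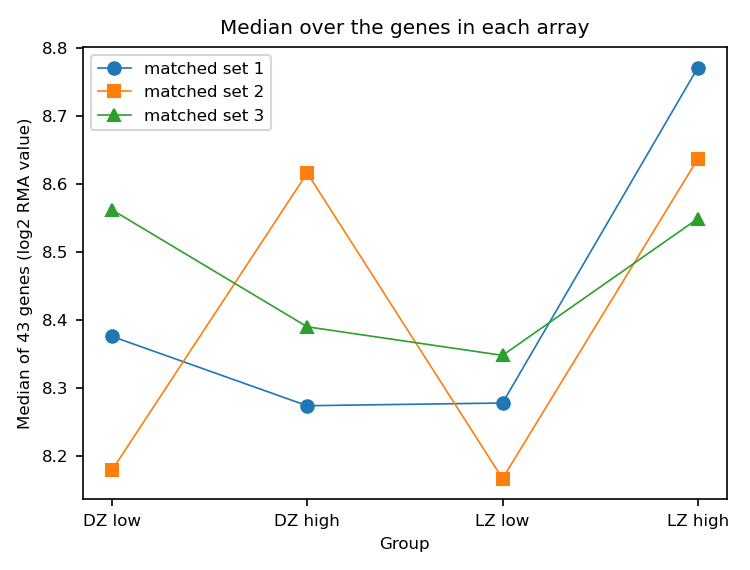
Each point is the median log2 value of the 43 genes in 1 array, by group, with arrays of a matched set joined. LZ high medians run from 8.55 to 8.77 and LZ low from 8.17 to 8.35, without overlap, while DZ high (8.27 to 8.62) and DZ low (8.18 to 8.56) overlap.

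In the mean of both zones, 37 of the 43 genes had a positive affinity difference (49.6% of all genes), with a median of 0.19 and 0 called (percent called 0). Without matched set 3, 41 were higher and the median was 0.25. Unadjusted p-values under 0.05 were found for 5 (5.25% of all genes), Polr1b, Nolc1, Wdr75, Cmss1 and Grwd1. All 6 high-affinity arrays lay above all 6 low-affinity arrays for 1 gene, Cmss1 (0.134% of all genes).

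The interaction of zone and affinity tests whether the affinity difference in the LZ exceeds that in the DZ. Its median over the 43 genes was 0.26, with 34 positive (49.4% of all genes) and 0 called by limma (percent called 0; adjusted p = 1 for all 43). Unadjusted p-values under 0.05 were found for 4 genes (1.58% of all genes): Nop16 (1.06 ± 0.40), Pno1 (0.94 ± 0.39), Nop14 (0.79 ± 0.31) and Wdr75 (0.61 ± 0.23). Without matched set 3, 37 were positive with a median of 0.245, and without DZ_low array 3 the median was 0.14. By set the median was 0.48, 0.003 and 0.17, against 0.12, -0.06 and 0.02 over all genes, so set 2 showed little excess in the LZ. No ribosome biogenesis gene was thus shown to differ between zones in its affinity difference. Cmss1 had 0.40 ± 0.30, even over sets at 0.47, 0.34 and 0.40.

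**Figure D4:**
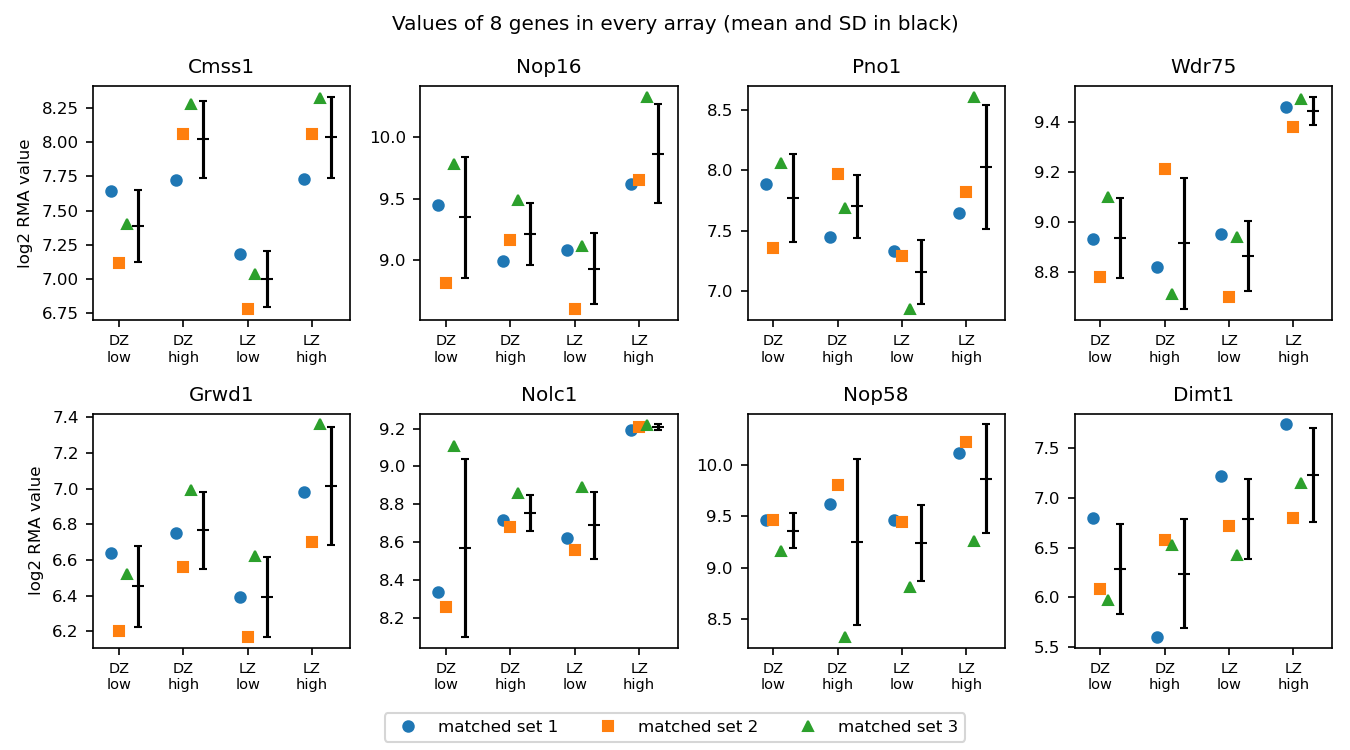
Log2 values of 8 genes in each of the 12 arrays, coloured by matched set, with the mean and SD of 3 arrays in black beside them; each panel has its own axis, which does not start at 0. Cmss1 separates by affinity in both zones, Wdr75 and Nolc1 have their highest 3 values in LZ high, and Dimt1 is higher in LZ than DZ arrays of the same set at both affinities.

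Light and dark zone cells were compared over both affinities and within each. In the mean of both affinities, 29 of 43 genes were higher in LZ cells (49% of all genes) with a median of 0.12. Without matched set 3, 34 were higher with a median of 0.17. Without DZ_low array 2, 24 were higher with a median of 0.06, and with array weights 26 were higher with a median of 0.03. None was called, against 47 of all genes (0.419%) and 135 with the block (1.2%). Array weights called Nob1, lower in LZ cells (-0.59, adjusted p = 0.048), where limma without them gave -0.46 (adjusted p = 0.725). The weights called 327 of all genes here (2.92%), against 47 without them. At an unadjusted p under 0.05, 2 genes were found, Dimt1 and Heatr1 (7.06% of all genes), and 7 with the block (10.8%). In every pair of arrays of both affinities, 4 genes were higher (4.54% of all genes) and 1 was lower (3.74%).

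Genes of mitosis and the G2 phase lay lower in LZ cells in this comparison, with a median of -0.38 and 1 of 23 at a positive difference. Of these, 4 fell by limma and 7 with the block, among them Ccnb2, a cyclin of mitosis (-0.87, limma adjusted p = 0.0234). Plasma cell markers had a median of -0.34, with 4 of 5 lower and 1 called, Jchain, the joining chain of secreted antibodies (-0.97, limma adjusted p = 0.0427). Irf4 of the same list went the other way (0.74 ± 0.21, limma adjusted p = 0.25). The mean level of that list ranged from 6.91 to 7.29 in LZ_high and from 6.82 to 7.06 in LZ_low arrays, beside the DZ ranges above. Of 5 follicular dendritic and stromal markers tested, 3 were lower and 1 was called, with a median of -0.01. The part of these genes in the zone values of the 43 was not tested.

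Dimt1, which dimethylates the small rRNA, was the member with the largest zone difference. It was 7.74, 6.80 and 7.15 in LZ_high against 5.60, 6.58 and 6.53 in DZ_high, and 7.22, 6.72 and 6.42 in LZ_low against 6.80, 6.08 and 5.97 in DZ_low. LZ values were higher in all 6 pairs, by 0.75 ± 0.24 in the mean (SE, limma adjusted p = 0.384). At high affinity the difference was 0.99 ± 0.35, of which the pair of set 1 gave 2.14, and without DZ_high array 1 it was 0.67.

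At high affinity 35 of 43 genes were higher in LZ cells (48.9% of all genes), 15 of them in every pair (13.9%), and 0 were called (percent called 0.0357; 4 genes in all, 9 with the block, which is 0.0803%). The median was 0.21, and 0.47, 0.14 and 0.04 by set. Without matched set 3, 39 were higher with a median of 0.27, and 27 were higher in both remaining pairs (29.4% of all genes). Among them 6 genes, Nolc1, Heatr1, Wdr75, Nop14, Dimt1 and Nop16, had all LZ_high arrays above all DZ_high arrays (3.72% of all genes), and 0 the reverse (3.66%). At an unadjusted p under 0.05 there were 5 genes (4.53% of all genes), which are these without Nolc1. Dkc1 was 8.36, 8.86 and 7.0 in DZ_high, lower than LZ_high in each pair, by 0.74 ± 0.51 in all and by 0.20 without DZ_high array 3. Gnl3 was 8.78, 9.07 and 7.92 there, a difference of 0.58 ± 0.36, and 0.25 without DZ_high array 3. These values share the LZ_high arrays with the LZ affinity comparison and are no separate support for it.

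At low affinity the zones were close, with 17 of 43 higher in LZ cells (49.5% of all genes), a median of -0.04 and 0 called (percent called 0.0357; 4 genes in all, 25 with the block, which is 0.223%). The sign of this median changed with the arrays used. It was 0.006 with 22 higher both without matched set 3 and without DZ_low array 3, and -0.16 with 12 higher without DZ_low array 2. Pno1 was lower in LZ_low than DZ_low cells without overlap (-0.62 ± 0.28, limma adjusted p = 0.999), and so was Wdr43, which makes 2 of 43 against 3.86% of all genes; 0 were higher without overlap (5.41%). At an unadjusted p under 0.05 Pno1 was the 1 gene found (4.69% of all genes). Pno1 and Wdr43 were lower in each of the 3 pairs. In the other direction, Polr1a was 7.46, 7.11 and 7.57 in DZ_low and higher in each LZ_low partner (0.51 ± 0.26), as was Utp15 at 8.05, 7.38 and 8.05 in DZ_low against 8.26, 7.91 and 9.04 (0.57 ± 0.36). Both gaps were widest in set 3.

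The rest of the pathway was described from other gene lists that hold none of the 43 genes. Proteins of the snoRNPs outside the core had a median LZ affinity difference of 0.24 (12 of 13 positive), other 40S factors 0.15 (40 of 48) and other 60S factors 0.13 (33 of 52). RNA exosome genes had 0.20 (10 of 15) and the RNA polymerase I machinery 0.10 (13 of 20). No gene of these lists was called in either affinity comparison, without or with the block. In set 3 the medians of these 5 lists lay between -0.09 and -0.03, below 0, where the 43 genes had 0.19.

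Named by the smallest p in the LZ comparison were Mrto4, a 60S assembly factor (0.55 ± 0.19), Ruvbl1, an ATPase of snoRNP assembly (0.49 ± 0.17), Tsr2, a 40S factor (0.76 ± 0.28), and Polr2f, a subunit shared by the RNA polymerases (0.85 ± 0.35). Each had a limma adjusted p of 0.999. Cytosolic ribosomal proteins, the load these factors assemble, had a median of -0.01 in the LZ (26 of 56 positive) and 0.01 in the DZ (36 of 56). RNA polymerase III had 0.01 (10 of 19), and mitochondrial ribosome genes had 0.16 (66 of 77). Over 56 genes the ribosomal proteins were thus about as often higher as lower in the LZ.

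Myc itself was 9.09, 8.88 and 8.0 in LZ_high, 8.37, 8.19 and 8.74 in LZ_low, 7.33, 8.14 and 8.55 in DZ_high and 7.81, 7.12 and 8.04 in DZ_low. High- and low-affinity values overlapped in each zone, with differences of 0.22 ± 0.37 in the LZ and 0.35 ± 0.37 in the DZ (SE, limma adjusted p = 0.999 and 1). Between zones, Myc was higher in LZ cells by 0.72 ± 0.26 in the mean of both affinities (limma adjusted p = 0.501). A list of 10 tested Myc network genes, Myc among them, had a median LZ affinity difference of -0.085 (3 of 10 positive, 0 called). Ribosome biogenesis genes with an E-box in the promoter window had a median LZ affinity difference of 0.25 over 10 genes, and those without had 0.38 over 29. The E-box genes Pno1 (0.87), Nop2 (0.69) and Grwd1 (0.62) were among the larger differences, and Mybbp1a (-0.04) and Wdr43 (0.09) among the smallest.

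**Figure D5:**
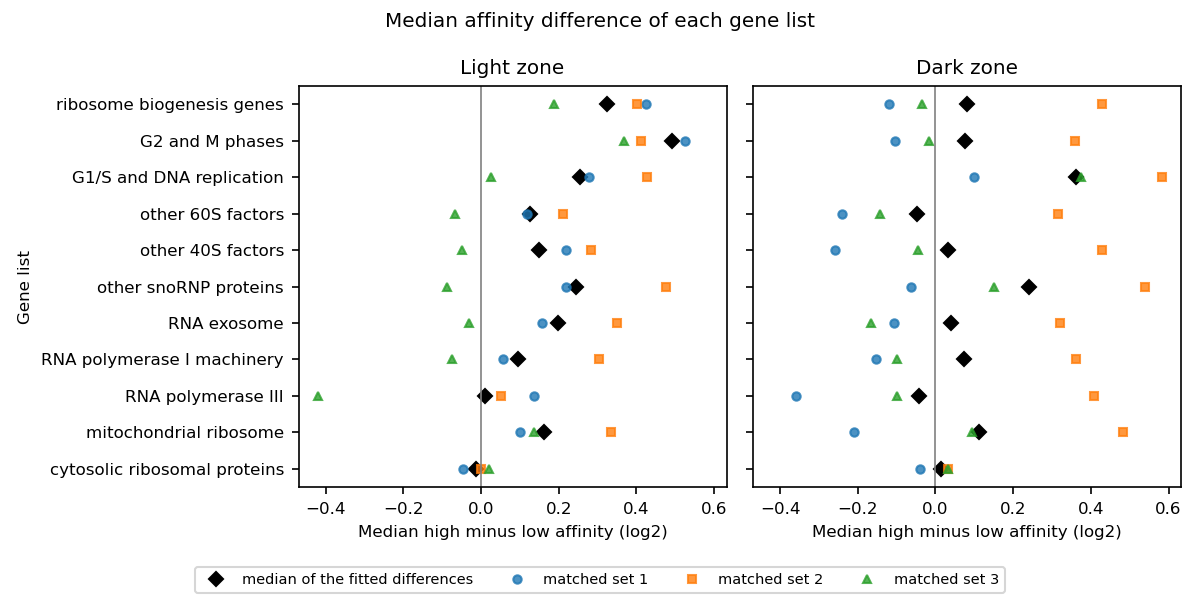
Diamonds give the median high minus low affinity difference (log2) of each gene list and coloured points the medians of the 3 matched pairs, for LZ and DZ. In the LZ the 43 ribosome biogenesis genes (0.33) and the G2 and M phase genes (0.49) have positive medians in all 3 sets, as do the G1/S and mitochondrial ribosome lists, while cytosolic ribosomal proteins lie at -0.01.

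Neighbouring transcripts can touch a probe set, and 14 of the 43 genes overlap another gene on the array, 18 genes in all. Several hold snoRNA genes in their introns, which are released from the same transcript. Snord57 in Nop56 had an LZ affinity difference of 0.05 where its host had 0.39, and Snora75 and Snord82 in Ncl had -0.41 and 0.16 where the host had 0.20. Snord53 in Wdr43 had 0.46, against 0.09 for the host (limma adjusted p = 0.999 for each of the 4). The differences between host and snoRNA were not tested.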

How the data were processed

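RNA of sorted GC B cells was amplified, labelled with biotin and hybridized to 12 one-colour arrays, per the labels' protocols. The deposited values are log2 expression values per probe set; the submitters' processing notes name RMA and the build mm8, and values of 1.99 to 13.74 gave the log base. Probe sets were named by the platform annotation. A gene was tested when at least 3 arrays reached the array's median over all probe sets, which left 11206 of 19938 genes. One limma model (version 3.58.1, R 4.3.3; lmFit, then eBayes, two-sided) of the 4 group means used all 12 arrays and 7 contrasts, and adjusted p-values (Benjamini-Hochberg) under 0.05 over all tested genes were called. The script was tested on simulated data. A pair is the 2 arrays of a matched set.

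The pairing comes from the suffix that same-numbered descriptions share. With group means removed, 17 of 18 same-set pairs of arrays had a correlation over 0.1 (from -0.0712, with a median of 0.406), and for 11 of 12 arrays the best match was of the same set. The matched set as a block was an alternative. Others were no or a stricter filter (percentile 75 in place of 50), quantile normalization, median centring, averaged probe sets per gene, eBayes with trend and robust, array weights, only the groups compared, and leaving out each array or matched set 3. Counts of pairs without set 3 were added after seeing the data.

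Genes with values given array by array, many of them in the LZ only, included those called and a fixed core of 17. They also included the 3 largest differences per contrast among genes that moved the same way in every pair. The other genes with values, such as Wdr75, Nop14 and Lyar, were chosen after their values were seen. Genes of the other lists were named by the smallest p. The 44 genes and all lists were chosen with earlier results of these data known. Arrays give no count, so their number limits the precision.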

Additional observations from a re-analysis of the deposited data

Results flagged for a closer look

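Of the 43 genes, 2 had LZ minus DZ differences of opposite sign at the 2 affinities in every matched set (2.12% of all tested genes did). Nop16 was higher in LZ cells at high affinity (0.65, pairs 0.49 to 0.84) and had -0.41 at low affinity (pairs -0.67 to -0.21); the interaction was 1.06 (SE 0.40, limma adjusted p = 1). Ncl had 0.29 at high affinity (pairs 0.10 to 0.63) and -0.11 at low affinity (pairs -0.19 to -0.07), with an interaction of 0.40 (SE 0.23, limma adjusted p = 1). Neither interaction passed the threshold. For the affinity difference, 0 of the 43 genes were opposite between the zones in this way (1.6% of all genes).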

How the results depend on the processing

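Over 22 settings, 449 of 453 values for the set as a whole stayed within 1.5 times the reported count or within 1 SD between sets of the reported median, and 745 of 756 values for named genes kept their direction and side of the threshold. The sign of 3 medians turned: the DZ affinity median was -0.06 without DZ_low array 2, and the low-affinity LZ minus DZ median was 0.006 without set 3 and without DZ_low array 3. These 3 are among the 449 kept, because the SD between sets was wider than the medians. It was 0.295 for the DZ affinity median and 0.159 for the low-affinity LZ minus DZ median. With array weights the number of genes called was 1 in LZ minus DZ, 2 in the LZ affinity comparison and 1 in its mean over zones, and Cmss1 passed in both of the last (1.05 and 0.78); over all genes the weights called 327, 103 and 52, against 47, 0 and 0 without them. The replicate block, which uses the pairing of the matched sets, called 0 of the 43 genes in all 7 contrasts; the LZ median stayed 0.33 and 37 were higher. Leaving out 1 array moved the number higher at high affinity between 18 and 32 in the DZ and between 35 and 40 in the LZ. Of the genes chosen by the naming rule, signs turned in the LZ affinity comparison for Polr1a (0.14 with array weights, 0.23 without set 3, and -0.37 to 0.12 without 1 array), Nob1 (0.014 without set 3) and Mybbp1a (0.039 with array weights, 0.13 without set 3, and -0.28 to 0.37 without 1 array, at 0.10, 0.06 and 0.37 where it turned). Over all 43 genes, signs turned in the LZ affinity comparison for up to 7 (array weights; 6 without set 3) and in the DZ for up to 13 (without DZ_high array 3). For array weights the cause was not tested; the other changes follow from the arrays left out. The number of arrays limits the precision. Without weights, limma called 0 genes of 11206 in either affinity comparison, with 466 at an unadjusted p under 0.05 in the LZ and 247 in the DZ.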

Other observations

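Genes of DNA replication and the G1/S transition had positive affinity differences in both zones, 23 of 24 in each, with medians of 0.26 in the LZ and 0.36 in the DZ and 0 called by limma in either (0 with the block). Tyms, which makes thymidylate for DNA, had the smallest p of this list in the LZ (0.73 ± 0.21, limma adjusted p = 0.999), and Mcm10, a replication initiation factor, in the DZ (0.60 ± 0.20, adjusted p = 1). In the DZ pairs of sets 1, 2 and 3 the median of the list was 0.10, 0.58 and 0.38, where the ribosome biogenesis genes had -0.12, 0.43 and -0.04. These comparisons share arrays, and the difference between the lists was not tested.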
